A study of Homo sapiens with 6 samples.

Results

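Ribosome biogenesis genes of the nucleolus were followed in RPMI8226 cells, a human multiple myeloma line that grows as malignant plasma cells in culture, by RNA-Seq of 6 libraries. In 3 libraries the wild-type cells had been given 100 nM GST-PTR1 for 6 hr, a recombinant fusion of glutathione-S-transferase with PTR1, a domain of HAPLN1 from the extracellular matrix, that was purified from bacteria. In the other 3 they had been given 100 nM GST alone, the control, for the same time. All libraries came from 1 cell line and 1 time point, and each treatment was described as 3 biological replicates. A list of 45 gene symbols was matched to the rows of the deposited gene count table by Ensembl identifier, keeping primary chromosomes. This gave 44 genes of the 63677 listed. BOP1 was the exception, because its matched identifier lay on an assembly patch with 0 counts in every library, and no value is given for it. The 44 genes lay on 18 chromosomes, and each had at least 399 counts in every library.

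The nucleolus makes ribosomes: RNA polymerase I copies the ribosomal DNA into 1 long precursor RNA, small nucleolar RNA-protein particles (snoRNPs) guide its chemical modification and cleavage, and assembly factors fold the pieces with ribosomal proteins into the small and large subunits. Cells raise or lower the whole set with growth, and the transcription factor MYC is a well-known activator of many of these genes through the E-box CACGTG. Plasma cells carry a high load of protein synthesis, which makes ribosome supply a familiar theme in myeloma. The genes were placed in 7 groups by role: RNA polymerase I transcription (6 genes), box C/D snoRNPs (4), box H/ACA snoRNPs (4), abundant nucleolar phosphoproteins (3), small subunit assembly (14), large subunit assembly (11) and other nucleolar factors (2).

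Promoter sequence was examined first, since the list did not use it. RefSeq promoter windows of the GRCh38.p14 assembly, from 250 bases before the transcript start to 50 after it, were matched by symbol for 38 of the 44 genes. The E-box CACGTG, which reads the same on both strands, was in the window of 20 of the 38 (52.6%), against 12.6% of 10285 genes that had a window and were tested for expression, and 8.77% of all 27305 genes with a window. The 20 genes held 22 such sites, 19 of them within 50 bases of the start. The promoters of 4 genes that rose with GST-PTR1 and carried the E-box in the 100 bases just before the start are printed 5′ to 3′ on the coding strand, with the E-box in capitals, to show how near the start it lies. They are the LYAR promoter at chr4:4290022-4290121 on the minus strand, that of DDX21 at chr10:68956547-68956646 on the plus strand, that of UTP20 at chr12:101280005-101280104 on the plus strand and that of UTP4 at chr16:69132549-69132648 on the plus strand.
LYAR: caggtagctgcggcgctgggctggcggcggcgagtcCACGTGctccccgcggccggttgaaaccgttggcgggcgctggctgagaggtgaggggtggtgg
DDX21: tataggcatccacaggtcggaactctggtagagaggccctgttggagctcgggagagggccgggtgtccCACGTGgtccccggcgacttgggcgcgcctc
UTP20: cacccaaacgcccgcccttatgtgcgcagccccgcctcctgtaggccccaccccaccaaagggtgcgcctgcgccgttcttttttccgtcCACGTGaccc
UTP4: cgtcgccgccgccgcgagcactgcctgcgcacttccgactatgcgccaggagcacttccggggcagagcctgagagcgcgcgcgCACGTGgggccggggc
Counting the start base as 0, the first base of the E-box was at -64 in LYAR, -31 in DDX21, -10 in UTP20 and -16 in UTP4. In GNL3 it was at 6, in WDR43 at 3, and in RRP9 it ran from -5 to 0 across the start. The E-box was present in 14 of 26 that passed the expression test described next (53.8%) and in 6 of 12 that did not. It was in 26 of 118 other ribosome biogenesis genes with a window. Of the other motifs searched on both strands, the ETS motif CCGGAAGT was in 23.7% of the 38 genes against 10.2% of tested genes, the NRF1 motif in 10.5% against 2.75%, the NF-Y motif CCAAT in 44.7% against 43.6%, and the YY1 motif AAGATGGCG in 2.63% against 4.74%. A match only says that these letters are in the window, and binding was not measured.

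Transcripts of the nucleolar genes were higher after GST-PTR1 as a group, by modest amounts. Of the 44 genes, 29 rose and 0 fell at an adjusted p under 0.05 (edgeR quasi-likelihood test, Benjamini-Hochberg over all 16926 genes tested), or 65.9% of them, whereas 9.15% of all tested genes rose and 11.4% fell. A gene past this threshold is referred to as called. The median log2 fold change was 0.41 for the 44 genes and 0.01 for all tested genes. At an unadjusted p under 0.05, 38 of the 44 were higher and 0 were lower, against 16.4% of tested genes higher. In 38 of the 44 the treatments did not overlap and GST-PTR1 was the higher, a pattern seen in 19.2% of tested genes (40.4% did not overlap in either direction). The fold change was positive in 43 of the 44, against 50.7% of tested genes, and POLR1A was below 0 with another scaling described later. The 29 that rose spanned 1.24-fold in POLR1B to 1.98-fold in LYAR. Only 5 rose by at least 1.5-fold (LYAR, GNL3, NOP16, DDX21 and RRP12) and 0 by at least 2-fold, while 40.2% of all genes that rose did so by at least 2-fold. In bulk RNA, more transcript per cell and more cells that carry it cannot be told apart.

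The count of genes that rose depended on single libraries and on scaling. The libraries of each treatment are called a, b and c in order of their totals, which were 15202503, 20077280 and 23453473 counts with GST and 22874133, 28837431 and 44688737 with GST-PTR1. Without GST a, b or c, 17, 26 or 15 of the 44 rose. Without GST-PTR1 a, b or c, 22, 16 or 23 did. The share of all tested genes that rose also dropped, to 7.84%, 7.84% or 6.09% without GST a, b or c and to 8.82%, 6.38% or 7.13% without GST-PTR1 a, b or c. POLR1B, RRN3, NCL, NOLC1, UTP4, UTP15, DDX10, PNO1, LTV1, NOP2, PES1 and MRTO4 lost their call without GST a. UTP4, NOP2 and RRP1 lost it without GST b, and the first 12 genes with WDR75 and RRP1B lost it without GST c. POLR1B, NCL, NOLC1, DDX10, NOP2, PES1, RRP1 and RRP1B lost it without GST-PTR1 a. The same 8 with RRN3, UTP4, UTP15, LTV1 and MRTO4 lost it without GST-PTR1 b. POLR1B, POLR1C, RRN3, UTP4, UTP15, PNO1, LTV1 and MRTO4 lost it without GST-PTR1 c, and 13 of the 29 kept it in all 6 of these tests. The values used here were scaled by TMM, which assumes that most genes do not change. Scaled to library totals instead, 9 of the 44 genes rose, 1 fell (UBTF), and of all tested genes 5.48% rose and 22.4% fell. That scaling moved the median of all genes by -0.20 on the log2 scale and the median of the 44 genes to 0.22. Thinning every library to the smallest total left 28 that rose, beside 8.68% of all genes tested there. Under 14 other settings, which were these, other tests and other filters but not the fits to 4 libraries described at the end, 9 genes rose every time: NOP56, UTP20, WDR43, RRP12, BYSL, NOP16, GNL3, DDX21 and LYAR.

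**Figure D1:**
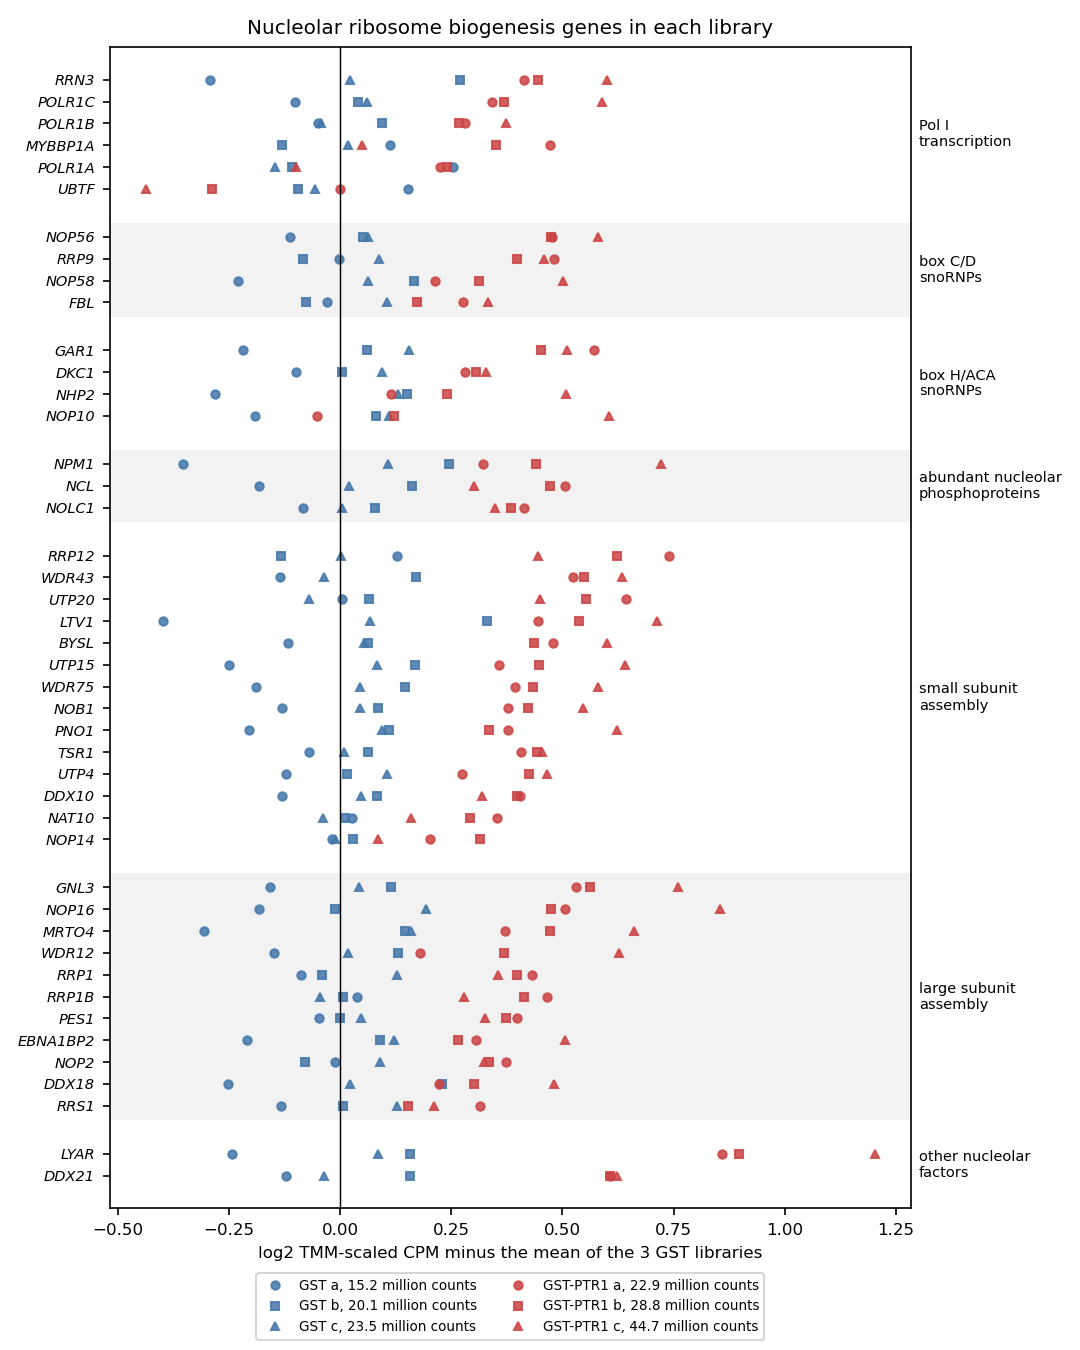
Each row is 1 of the 44 genes, ordered by role and then by fold change; the x axis is the log2 TMM-scaled CPM in a library minus the mean of the 3 GST libraries (blue GST, red GST-PTR1, marker shape by library). In 38 rows all red markers lie to the right of all blue ones, and the blue circle, GST a, is the lowest GST marker in 34 rows.

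Together the 44 genes took 0.744%, 0.875% and 0.844% of the scaled counts with GST and 1.07%, 1.08% and 1.13% with GST-PTR1, in order of library total. The treatments did not overlap in this sum, but the GST libraries were not alike. GST a was the lowest of its treatment in 34 of the 44 genes, and GST-PTR1 c was the highest of its treatment in 27. In the text that follows, the 3 values of each treatment are CPM (counts scaled by TMM to a common library total) in order of library total, ± after a log2 fold change is the standard error, and the median of a group is that of its log2 fold changes.

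Among RNA polymerase I genes, 3 of 6 rose, with a median log2 fold change of 0.30. POLR1C, a subunit that RNA polymerase I shares with RNA polymerase III, was at 43.4, 47.9 and 48.5 CPM with GST and 59.0, 60.1 and 70.0 CPM with GST-PTR1, a rise of 1.35-fold (log2 0.44 ± 0.11, edgeR adjusted p = 0.0168). RRN3, the initiation factor that brings the polymerase to the promoter, was at 62.2, 91.8 and 77.4 CPM and 101, 104 and 115 CPM, 1.38-fold higher (edgeR adjusted p = 0.0339). POLR1B, the polymerase's core subunit next to the catalytic one, was at 124, 137 and 124 CPM and 156, 154 and 166 CPM, 1.24-fold higher (edgeR adjusted p = 0.0456). For all 3 genes the treatments did not overlap, yet POLR1B lost its call when any library but GST b was left out (edgeR adjusted p from 0.0903 to 0.146), RRN3 lost its call without any 1 of 4 libraries and POLR1C without GST-PTR1 c (edgeR adjusted p = 0.0553). RRN3 also has 4 named pseudogenes with 40.6% as many counts as the gene itself, and reads may be split between them, so its count is uncertain. The other 3 genes did not pass. POLR1A, the largest catalytic subunit, was at 180.1, 140.1 and 136 CPM and 176, 178 and 141 CPM (log2 0.12 ± 0.14, edgeR adjusted p = 0.568), and its treatments overlapped. Its fold change was above 0 with TMM and below 0 with library totals. MYBBP1A, a nucleolar protein tied to RNA polymerase I and the most abundant of the 6 per length, was at 167, 141 and 157 CPM and 214, 197 and 160.0 CPM (edgeR adjusted p = 0.118). UBTF, the factor that keeps ribosomal DNA open, was the 1 gene of the 44 with a negative value: it was at 188, 158 and 163 CPM with GST and 169, 138 and 125 CPM with GST-PTR1 (log2 -0.23 ± 0.13, edgeR adjusted p = 0.215). UBTF libraries of the treatments overlapped, and it passed as lower only with library totals (log2 -0.43, edgeR adjusted p = 0.0483).

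The box C/D snoRNP proteins, which carry ribose methylation to the precursor, gave 2 rises in 4 with a median of 0.39. NOP56, a core scaffold protein, was at 417, 467 and 471 CPM with GST and 628, 627 and 674 CPM with GST-PTR1, 1.42-fold higher (log2 0.51 ± 0.11, edgeR adjusted p = 0.00689). RRP9, the protein specific to the U3 snoRNP that starts small subunit cleavage, was at 80.7, 76.3 and 85.9 CPM and 113, 107 and 111 CPM, 1.36-fold higher (log2 0.44 ± 0.10, edgeR adjusted p = 0.00792). Both genes had all GST-PTR1 libraries above all GST libraries, and both rose whichever library was left out, but RRP9 did not pass with library totals (edgeR adjusted p = 0.109). FBL, fibrillarin, the methyltransferase itself and the most abundant of the 4 per length, was at 232, 225 and 255 CPM and 287, 267 and 298 CPM without overlap and did not pass (log2 0.26 ± 0.10, edgeR adjusted p = 0.0984). NOP58, the partner of NOP56, had a log2 fold change of 0.34 ± 0.13 and did not pass either (edgeR adjusted p = 0.0888).

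In the box H/ACA snoRNPs, which convert uridine to pseudouridine, 1 of 4 core proteins rose and the median was 0.29. The gene was GAR1, at 24.0, 29.1 and 31.1 CPM with GST and 41.4, 38.1 and 39.7 CPM with GST-PTR1, 1.42-fold higher (log2 0.50 ± 0.12, edgeR adjusted p = 0.0144), without overlap and with its call kept whichever library was left out. DKC1, the pseudouridine synthase, was at 253, 271 and 289 CPM and 329, 334 and 339.8 CPM. Its treatments did not overlap and its fold change of 1.23 missed the threshold narrowly (edgeR adjusted p = 0.0552). NOP10, the smallest gene of the 44 with 551 exon bases and the most abundant of this group per length, was at 58.1, 70.2 and 71.6 CPM and 64.0, 72.2 and 101 CPM with overlap (edgeR adjusted p = 0.297). GST-PTR1 c stood above the rest for NOP10. NHP2 had a log2 fold change of 0.28 ± 0.14 (edgeR adjusted p = 0.177), and its 2 named pseudogenes held 29.3% as many counts as the gene.

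Of the abundant nucleolar phosphoproteins 2 of 3 rose, with a median of 0.42, and NPM1 and NCL had the highest levels of the 44 genes. Per length with GST, nucleophosmin NPM1 stood at 256 ± 52.7 RPKM, nucleolin NCL at 168 ± 19.9 RPKM and the snoRNP chaperone NOLC1 at 97.4 ± 5.47 RPKM (mean ± SD, n = 3). The lowest gene, UTP20, stood at 6.43 ± 0.301 RPKM. NCL was at 1021, 1297 and 1176 CPM with GST and 1645, 1607 and 1429 CPM with GST-PTR1, 1.34-fold higher (edgeR adjusted p = 0.0403). NOLC1 was at 364, 408 and 387 CPM and 514, 504 and 491 CPM, 1.30-fold higher (edgeR adjusted p = 0.0234). Neither gene's treatments overlapped, and each lost its call without any 1 of 4 libraries, among them GST a (edgeR adjusted p = 0.107 for NCL and 0.0637 for NOLC1). NPM1 was at 756, 1146 and 1042 CPM and 1208, 1312 and 1595 CPM. Its fold change of 1.40 was larger than that of NCL but the spread among its libraries was wider (standard error 0.17 against 0.13) and it did not pass (edgeR adjusted p = 0.0653). NPM1 has 49 named pseudogenes with 70.3% as many counts as the gene, so its count is uncertain too.

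Small subunit assembly was the group with the most rises, 12 of 14 genes with a median of 0.46. Subunits of the UTP-A complex, which binds the precursor as it is made, were among them. WDR43 was at 118, 146 and 127 CPM with GST and 187, 190.1 and 202 CPM with GST-PTR1, 1.48-fold higher (log2 0.56 ± 0.11, edgeR adjusted p = 0.00418). UTP15 was at 45.6, 60.9 and 57.4 CPM and 69.5, 73.9 and 84.5 CPM, 1.39-fold higher (edgeR adjusted p = 0.0246). WDR75 was at 84.9, 107 and 99.9 CPM and 127, 131 and 145 CPM, 1.38-fold higher (edgeR adjusted p = 0.0151). In these genes GST a was the lowest, and the treatments did not overlap. UTP4 was at 199.97, 220.0 and 234 CPM and 263, 292 and 301 CPM, 1.31-fold higher (edgeR adjusted p = 0.0270). UTP4 kept its call only when GST-PTR1 a was the one left out, with edgeR adjusted p from 0.0533 to 0.0989 without each of the others. UTP15 lost its call without any 1 of 4 libraries and WDR75 without GST c (edgeR adjusted p = 0.0524).

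Scaffold and export factors of the small subunit also rose. UTP20, a very large scaffold protein whose promoter is printed above, was at 64.6, 67.4 and 61.3 CPM and 101, 94.5 and 87.9 CPM, 1.46-fold higher (log2 0.55 ± 0.10, edgeR adjusted p = 0.00285). RRP12, which takes part in subunit export, was at 98.5, 82.2 and 90.2 CPM and 150.4, 139 and 123 CPM, 1.52-fold higher (log2 0.60 ± 0.11, edgeR adjusted p = 0.00379). BYSL, bystin, was at 51.3, 58.0 and 57.7 CPM and 77.5, 75.2 and 84.3 CPM, 1.42-fold higher (log2 0.50 ± 0.10, edgeR adjusted p = 0.00556). These 3 genes were clear of overlap and passed under each of the 14 other settings. In UTP20 and RRP12 GST-PTR1 c was the lowest of its treatment, unlike in most of the 44 genes. DDX10, an RNA helicase, was at 106, 123 and 120.3 CPM and 154, 153 and 145 CPM, 1.29-fold higher (edgeR adjusted p = 0.0238), a call that it lost without any 1 of 4 libraries.

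Late factors that finish the small subunit rose as well. NOB1, the nuclease that makes the last cut of the small subunit RNA and the most abundant of this role per length, was at 108, 126 and 123 CPM with GST and 154, 159 and 173 CPM with GST-PTR1, 1.36-fold higher (log2 0.45 ± 0.10, edgeR adjusted p = 0.0115). PNO1, its partner, was at 49.3, 61.3 and 60.7 CPM and 73.8, 71.8 and 87.5 CPM, 1.36-fold higher (edgeR adjusted p = 0.0263). TSR1, a late assembly factor, was at 120.2, 132 and 127 CPM and 167, 171 and 173 CPM, 1.35-fold higher (log2 0.43 ± 0.09, edgeR adjusted p = 0.00818). The enzyme and its partner had fold changes of nearly the same size, and no library of either treatment crossed over in these genes. LTV1, another late factor, was at 27.9, 46.3 and 38.6 CPM and 50.2, 53.5 and 60.4 CPM, 1.45-fold higher (edgeR adjusted p = 0.0413). Its value in GST a stood far below the others, and LTV1 lost its call without any 1 of 4 libraries, PNO1 without any 1 of 3. The pair of genes that did not pass were NAT10, the acetyltransferase of the small subunit RNA (log2 0.27 ± 0.10, edgeR adjusted p = 0.0738), and NOP14 (log2 0.20 ± 0.10, edgeR adjusted p = 0.165).

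Large subunit assembly gave 7 rises in 11 genes with a median of 0.39. GNL3, the GTP-binding protein nucleostemin and the most abundant of the 11 per length, was at 264, 318 and 303 CPM with GST and 424, 434 and 498 CPM with GST-PTR1, 1.53-fold higher (log2 0.62 ± 0.12, edgeR adjusted p = 0.00390). NOP16 was at 60.4, 68.0 and 78.3 CPM and 97.3, 95.2 and 124 CPM, 1.53-fold higher (log2 0.61 ± 0.13, edgeR adjusted p = 0.00864). MRTO4, which holds a place on the subunit for the ribosomal stalk, was at 98.5, 135 and 136 CPM and 158, 169 and 193 CPM, 1.41-fold higher (edgeR adjusted p = 0.0294). All 3 had their highest value in GST-PTR1 c and none overlapped. MRTO4, unlike the first pair, lost its call without any 1 of 4 libraries. RRP1 was at 90.0, 92.9 and 104 CPM and 129, 126 and 122 CPM, 1.31-fold higher (edgeR adjusted p = 0.0180). RRP1B, its paralog, was at 172, 169 and 163 CPM and 232, 223 and 203 CPM, 1.31-fold higher (edgeR adjusted p = 0.0187). The paralogs had nearly equal folds, and each lost its call without any 1 of 3 libraries.

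PES1 and WDR12 form a complex with BOP1 that large subunit assembly needs. PES1 was at 221, 229 and 237 CPM and 302, 297 and 287 CPM, 1.29-fold higher (edgeR adjusted p = 0.0213). WDR12 was at 87.5, 106 and 98.3 CPM and 110.0, 125 and 149.8 CPM, with a larger fold of 1.32 that fell just outside the threshold (edgeR adjusted p = 0.0504) and passed under 5 of the 14 other settings. NOP2, a methyltransferase of the large subunit RNA, was at 122, 116 and 131 CPM and 159, 155 and 154 CPM, 1.27-fold higher (edgeR adjusted p = 0.0276). All 3 genes were without overlap between treatments. PES1 lost its call without any 1 of 4 libraries and NOP2 without any 1 of 5. EBNA1BP2 (log2 0.36 ± 0.12, edgeR adjusted p = 0.0620), the helicase DDX18 (log2 0.32 ± 0.13, edgeR adjusted p = 0.110) and RRS1 (log2 0.22 ± 0.11, edgeR adjusted p = 0.172) did not pass. The RRS1 exons overlapped another gene of the same strand over 11.4% of their length, the most of the 44 genes, and reads there were left out of the count.

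The remaining pair held the gene with the largest rise of the 44. LYAR, a zinc finger protein of the nucleolus, was at 38.8, 51.2 and 48.8 CPM with GST and 83.3, 85.5 and 106 CPM with GST-PTR1, 1.98-fold higher (log2 0.98 ± 0.14, edgeR adjusted p = 0.000490). The lowest GST-PTR1 library was well above the highest GST library, and over the 14 other settings the log2 fold change of LYAR ran from 0.78 to 1.06. DDX21, an RNA helicase that works with RNA polymerase I and with snoRNAs, was at 285, 346 and 302 CPM and 472, 472 and 477 CPM, 1.52-fold higher (log2 0.61 ± 0.11, edgeR adjusted p = 0.00279). Its GST-PTR1 libraries were the closest together, in ratio, of the 44 genes, and its log2 fold change ran from 0.41 to 0.69 over those settings.

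**Figure D2:**
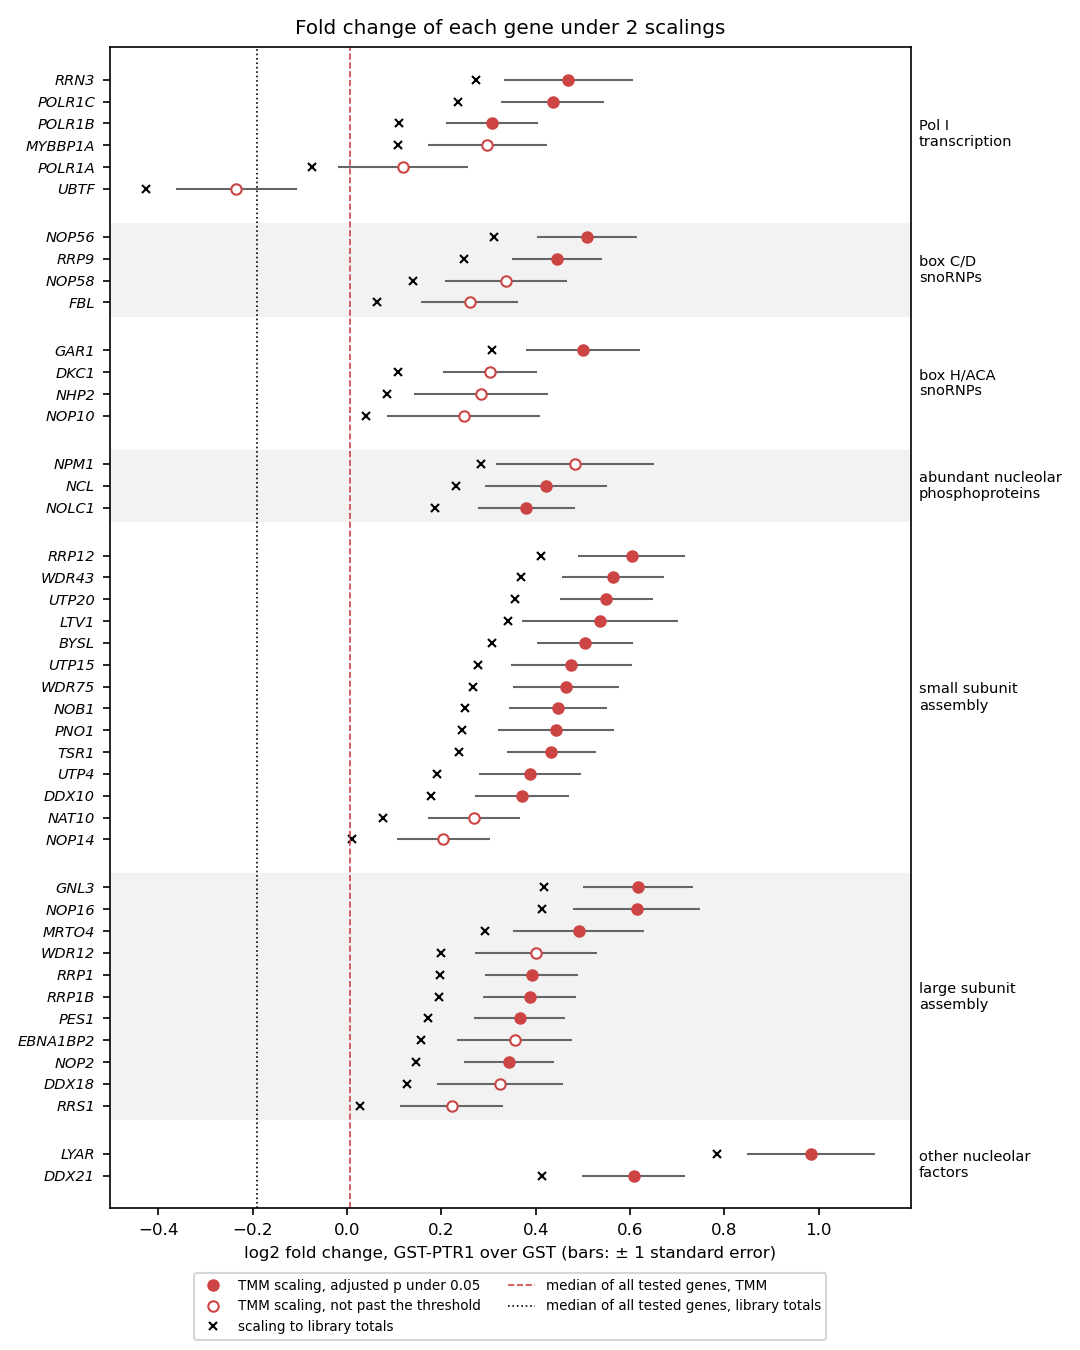
Log2 fold change of GST-PTR1 over GST for each of the 44 genes, by role, with bars of 1 standard error; filled circles passed the test with TMM, open circles did not, and crosses are the same fold scaled to library totals. Circles lie to the right of the dashed median of all tested genes (0.01) in 43 rows and crosses to the right of the dotted one (-0.19) in 43 rows, UBTF being the exception in both.

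The genes that passed and those that did not were compared in size and level. Median exon length was 4251 bases in the 29 and 3828 in the 15, and the median level with GST was 24.2 and 26.1 RPKM. The median standard error was 0.11 in the 29 and 0.13 in the 15, and the median log2 fold change 0.46 and 0.28. Of the 15, 14 had a positive value, and their failure to pass does not show that they were unchanged.

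Transcript length moved with the differences between libraries of 1 treatment. Over the 44 genes, Pearson's r between log2 exon length and the log2 ratio of GST c over GST a was -0.569, and for GST-PTR1 c over GST-PTR1 a it was -0.525 (-0.305 and -0.327 over all tested genes). These points share their libraries, and no p is given. Short NOP10 and long UBTF were the ends of the GST-PTR1 pair, with log2 ratios of 0.66 and -0.44. LTV1 and POLR1A were the ends of the GST pair, with 0.47 and -0.40. For the fold change between treatments r was -0.145, and with a length trend removed from each library 35 of the 44 genes and 10.6% of all tested genes rose, and 0 of the 44 fell.

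**Figure D3:**
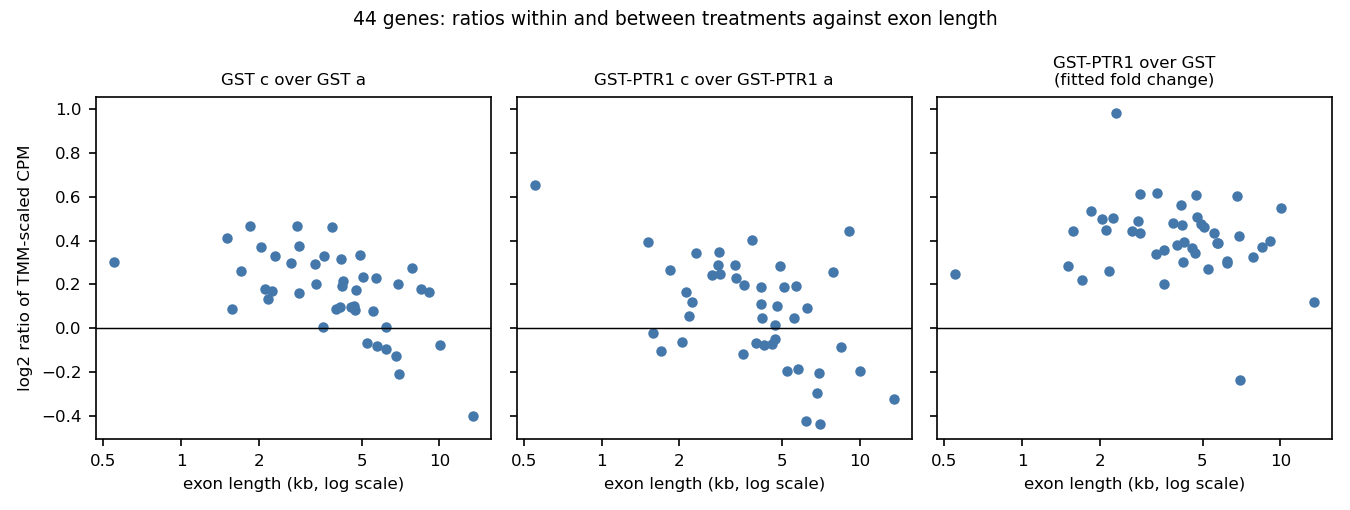
Log2 ratio of TMM-scaled CPM against exon length (kilobases, log scale) for the 44 genes, between 2 GST libraries (left), between 2 GST-PTR1 libraries (middle) and as the fitted fold change between treatments (right). The first and second clouds slope downward (r of -0.569 and -0.525) and the third is nearly flat (r of -0.145).

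Ribosome biogenesis genes outside the 45 also moved upward. In 5 further lists, 44 of 137 genes tested rose and 0 fell (32.1%, against the 9.15% of all tested genes), 131 had a positive fold change and the median was 0.33. The 44 became 12 without GST c, 21 without GST a, 13 without GST-PTR1 b and 21 without GST-PTR1 c. With library totals 6 rose (4.38%, against 5.48% of all tested genes), and 104 of the 137 were positive. Small subunit processome genes gave 19 of 44, among them UTP14A (log2 0.54 ± 0.10, edgeR adjusted p = 0.00325), PWP2 (log2 0.44 ± 0.09, edgeR adjusted p = 0.00689) and UTP25 (log2 0.45 ± 0.10, edgeR adjusted p = 0.00694). Large subunit genes gave 15 of 52, led by BRIX1, which was at 46.3 CPM on average with GST and 76.2 CPM with GST-PTR1 (log2 0.72 ± 0.17, edgeR adjusted p = 0.0126). Other RNA polymerase I and SL1 genes gave 4 of 16, with POLR1F (log2 0.47 ± 0.10, edgeR adjusted p = 0.00838) and the SL1 subunit TAF1D (log2 0.40 ± 0.09, edgeR adjusted p = 0.0117) among them. TAF1D lost its call without GST-PTR1 b (edgeR adjusted p = 0.0555). The snoRNP assembly list gave 3 of 10 (NAF1, SHQ1 and ZNHIT6). The nuclear exosome list gave 3 of 15 (DIS3, EXOSC3 and XRN2, a nuclease that is not an exosome subunit). Subunits specific to RNA polymerase III, which makes transfer RNA and the smallest ribosomal RNA, gave 1 of 11 (9.09%), near the 9.15% of all tested genes. It was POLR3G (log2 0.42 ± 0.12, edgeR adjusted p = 0.0314), called in 2 of the 6 tests that left out a library. Those were the tests without GST b or GST-PTR1 a, and in the others its edgeR adjusted p was up to 0.1003.

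MYC itself, the activator named in the background, was at 964, 889.8 and 874 CPM with GST and 983, 988 and 930.0 CPM with GST-PTR1 and did not pass (log2 0.09 ± 0.11, edgeR adjusted p = 0.586). Of 10 genes of the MYC network, 0 rose and 3 fell, beside 9.15% and 11.4% of all tested genes. The 3 were MXD3 (log2 -0.73 ± 0.14, edgeR adjusted p = 0.00360), MXD4 (log2 -0.58 ± 0.14, edgeR adjusted p = 0.0117) and MNT (log2 -0.57 ± 0.18, edgeR adjusted p = 0.0478). These 3 compete with MYC for its partner MAX, but so do MXI1 (log2 0.32 ± 0.11, edgeR adjusted p = 0.0596), MXD1 (log2 -0.14 ± 0.13) and MGA (log2 -0.06 ± 0.14), which did not pass, the last pair being named after their values were seen. MXD3 and MXD4 were called whichever library was left out, while MNT was called only without GST b or GST-PTR1 a (edgeR adjusted p up to 0.140 otherwise). With library totals the log2 value of MYC was -0.11 and the 3 genes still fell, and with a length trend removed MXI1 and MLXIP rose. MAX had a log2 value of 0.17 ± 0.10 (edgeR adjusted p = 0.239). Whether these changes bear on the nucleolar genes was not tested.

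Many snoRNAs are cut from introns of genes for nucleolar and ribosomal proteins. The table listed 22 small nucleolar RNA genes inside 7 of the 44, but the libraries were prepared for messenger RNA and only 7 had more than 3 counts in any library. Just 2 were abundant enough to test, both inside GNL3. SNORD69 had 12, 11 and 13 counts with GST and 29, 25 and 29 with GST-PTR1 (log2 0.72, edgeR adjusted p = 0.138), and SNORD19C had 6, 9 and 8 against 10, 17 and 24 (log2 0.62, edgeR adjusted p = 0.208). Neither passed the threshold, although their values did not overlap between treatments, before or after TMM scaling. The counts are too few to say whether they followed their host.

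Cell identity was checked with marker lists. Of 10 plasma cell and myeloma markers, 9 had more than 3 counts in every library, CD27 being at or under 1 count. Their summed level, here in CPM of the unscaled library totals, was 4285 to 5238 with GST and 3743 to 4326 with GST-PTR1. Within that list IRF4, PRDM1 and SLAMF7 rose and SDC1, TNFRSF17 and XBP1 fell. Of 17 markers of other cells, 8 were at or under 3 counts in every library, including the T cell genes CD3E and CD3D. Another T cell gene, CD8A, had 79, 110 and 131 counts with GST and 77, 80 and 118 with GST-PTR1. CD8A fell (log2 -0.70 ± 0.17, edgeR adjusted p = 0.0132), and so did KRT18 (log2 -0.65 ± 0.09, edgeR adjusted p = 0.000638). The sum of the 17, also in CPM of the unscaled totals, was 173 to 188 with GST and 116 to 126 with GST-PTR1, held mostly by KRT18 and EPCAM. TMM factors were above 1 in every GST library and below 1 in every GST-PTR1 library. Scaling by them would lower the GST sums of both lists and raise the GST-PTR1 sums. How far these marker shifts bear on the nucleolar genes was not tested. The GST-PTR1 libraries were also deeper on the whole, and the count with library totals made equal by thinning is the 28 given above.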

How the data were processed

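Total RNA was extracted with Trizol from 6 RPMI8226 cultures and made into strand-specific mRNA libraries. The authors deposited 1 table of raw read counts per gene, made with featureCounts 1.5.0-p1 on the reverse strand from the Ensembl release 75 annotation of GRCh37, with no normalization. Their processing notes name the hg19 build, FastQC, Subread, featureCounts and limma, and the aligner's settings are not given in the sources used here. Columns were assigned to a treatment by their names, whose numbers do not match the samples' replicate numbers.

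Totals were 15202503 to 23453473 counts with GST and 22874133 to 44688737 with GST-PTR1, so 3 counts, the floor used, were worth 0.0671 to 0.197 CPM of the unscaled totals, which covers counting error only. Symbols were matched for 52181 identifiers. Genes passing filterByExpr were tested with edgeR 4.0.16 (quasi-likelihood test, TMM factors of 1.05 to 1.10 with GST and 0.883 to 0.975 with GST-PTR1, no covariate) in R 4.3.3, with Benjamini-Hochberg adjustment over 16926 genes and a threshold of 0.05. The test was tried on simulated data first, where it recovered a minority of changes of the size seen here and the false share of its calls was above the threshold. DESeq2 1.42.0, limma voom 3.58.1, other scalings and filters, a length trend removed, thinning and each library left out were alternatives. CPM and RPKM of genes were computed on TMM-scaled totals, and the summed marker levels on unscaled totals. No exact permutation of 3 against 3 libraries can go below 0.1, so none is given. No libraries within a treatment agreed within sampling noise (smallest chi-square per gene 8.38).

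The genes, the role groups and the other lists were chosen with earlier results of these data known. Values were given for genes that rose and for the most abundant gene per length of each group, POLR1A, UBTF, DKC1 and WDR12 were added after their values were seen, and of other lists the 3 smallest p in each direction could be named. BOP1 and 4 genes of the other lists without a matched row (DDX52, AATF, NOL12 and ZNHIT3) were not analysed here.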

Additional observations from a re-analysis of the deposited data

How the results depend on the processing

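Among the settings that kept all 6 libraries, library totals moved the nucleolar count most. With them, 9 nucleolar genes rose, 1 fell and their median log2 fold change was 0.22, POLR1A turned to -0.07 (-0.0747), and 6 genes of the other ribosome biogenesis lists rose. With TMM kept, testing every gene with at least 1 count in any library raised the count of the other lists from 44 to 72. There, 8.25% of 31617 tested genes rose. With 1 library left out at a time, 15 to 26 nucleolar genes rose with a median of 0.34 to 0.45, and 12 to 37 genes of the other lists. DESeq2 called 33 nucleolar genes and limma voom 30, with 10.7% and 9.15% of all tested genes higher. Of 704 single-gene values over all alternatives, 579 kept direction and side of the threshold, 101 lost the call, 23 gained it and 1 reversed. The causes were not tested.

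A replicate block over all 6 libraries could not be made because the column names do not carry the samples' replicate numbers. A pairing by column number, chosen after seeing the data, was possible for 4 libraries: 20 nucleolar and 28 other genes rose without the replicate block, and 18 and 23 with it (10.3% and 9.24% of all tested genes). The differences of these 2 pairs were not correlated over genes (r = -0.0305).

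Every nucleolar gene had at least 399 counts in each library, and each test rests on 3 libraries a treatment. The libraries hold 1 cell line, 1 dose and 1 time, and those of GST-PTR1 were deeper on the whole.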
